A study of Mus musculus with 8 samples.

Results

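Flt3, Kit, Csf1r, Crlf2, Cd34, Cd93, Ly6d and Ly6a encode cell surface receptors and markers by which early haematopoietic and lymphoid progenitor cells are recognised. The genes were taken from a list of these 8 symbols, each matched to 1 Entrez Gene identifier of the count table, and make up 8 of its 27179 genes. RNA-seq was performed on sorted bone marrow cells in 4 groups of 2 biological replicates, giving 8 libraries. Ergfl/fl mice gave pre-proB, proB and preB cells, successive stages of early B lymphopoiesis, and a further group of pre-proB cells came from Rag1CreT/+;ErgΔ/Δ mice. Mice were 7 to 10 weeks old, both sexes were in use in the study, strains were kept on C57BL/6J, and 2 mice of each genotype were sorted independently. The 6 Ergfl/fl libraries, 3 stages in duplicate, thus came from 2 mice by the methods, and the labels do not say which libraries share a mouse. Rag1CreT/+ is a Cre transgene that deletes the floxed Erg alleles from common lymphoid progenitors onwards, and the Ergfl/fl mice carried no Cre (Rag1Cre+/+), so that Cre is a further difference between the genotypes. All gates took B220+ cells negative for IgM, IgD, NK1.1 and CD11c and divided them by further surface markers, so none of the 8 gene products was used to sort these cells.

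In GRCm38, Flt3 (chr5:147330741-147400489), Kit (chr5:75574987-75656722) and Crlf2 (chr5:109554709-109559128) lie on chromosome 5, Ly6d (chr15:74762056-74763567) and Ly6a (chr15:74994877-74998031) on chromosome 15, Cd34 (chr1:194938821-194961292) on chromosome 1, Cd93 (chr2:148436651-148443535) on chromosome 2 and Csf1r on chromosome 18. FLT3, KIT and the CSF1 receptor are class III receptor tyrosine kinases, dimerised by FLT3 ligand, stem cell factor, and CSF1 or IL-34 respectively. CRLF2 pairs with the interleukin 7 receptor α chain to form the receptor for thymic stromal lymphopoietin, TSLP. CD34 is a sialomucin of stem and progenitor cells, CD93 a C-type lectin domain protein known in B lymphopoiesis as the AA4.1 antigen, Ly6D a marker of B lineage-biased lymphoid progenitors, and Ly6A is Sca-1, a marker of multipotent progenitors that interferon also induces. Plasmacytoid dendritic cells, which carry B220, are known to express several of these genes as well.

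Library totals were between 15565381 and 18457632 counts, at which 3 counts correspond to 0.154 to 0.194 CPM, library-scaled counts after TMM normalisation. Erg itself was at 69.1 and 25.3 CPM in Ergfl/fl pre-proB cells, at 144 and 127 CPM in proB cells, at 19.6 and 28.7 CPM in preB cells, and at 2.50 and 2.58 CPM in Rag1CreT/+;ErgΔ/Δ pre-proB cells. The summed CPM of 11 B-lineage markers was 1930.5 and 951 in Ergfl/fl pre-proB replicates 1 and 2, against 6040 to 6411 in proB, 9451 to 9868 in preB and 407 in both Rag1CreT/+;ErgΔ/Δ libraries. Pre-proB libraries of both genotypes also held RNA of plasmacytoid dendritic cell markers, 15 genes summing to 16879 to 19942 CPM, against 1331 to 2895 CPM in proB and preB libraries. Most of the proB and preB sums was 1 gene, Spib, at 796 and 706 CPM in proB and 2368 and 2378 CPM in preB libraries. Itgax, which encodes the gated-out CD11c, stood at 326 to 452 CPM in the 4 pre-proB libraries and at 1.35 to 5.14 CPM in the other 4. Myeloid markers (15 genes) summed to 486 CPM in proB replicate 2 and 251 CPM in proB replicate 1. In bulk RNA of sorted cells, fewer cells that express a gene and less RNA per cell cannot be told apart.

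All 8 genes passed the expression filter, at least 0.5 CPM in at least 2 libraries, in every comparison. From pre-proB to proB cells of Ergfl/fl mice all 8 were called at an adjusted p below 0.05 in edgeR's quasi-likelihood test (Benjamini-Hochberg adjustment over 13650 genes), 2 higher (Kit and Cd93) and 6 lower. Of all genes tested in that comparison 73.0% were called, 36.2% higher and 36.8% lower. From proB to preB cells 6 were called, 1 higher (Ly6d) and 5 lower (Flt3, Kit, Csf1r, Cd34 and Ly6a), where 58.9% of all genes were called, 29.0% higher and 29.9% lower. Between preB and pre-proB cells 8 were called, Cd93 higher and the other 7 lower, where 70.7% of all genes were called, 36.5% higher and 34.1% lower. Between the genotypes in pre-proB cells 0 of 8 were called, where 1.16% of 13005 genes were, 0.215% higher and 0.946% lower. The shares of all genes are large between stages, so a call there says little by itself, and the sizes of the changes differed widely among the 8 genes, from a log2 fold change of -7.32 to 2.19 between preB and pre-proB cells.

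**Figure D1:**
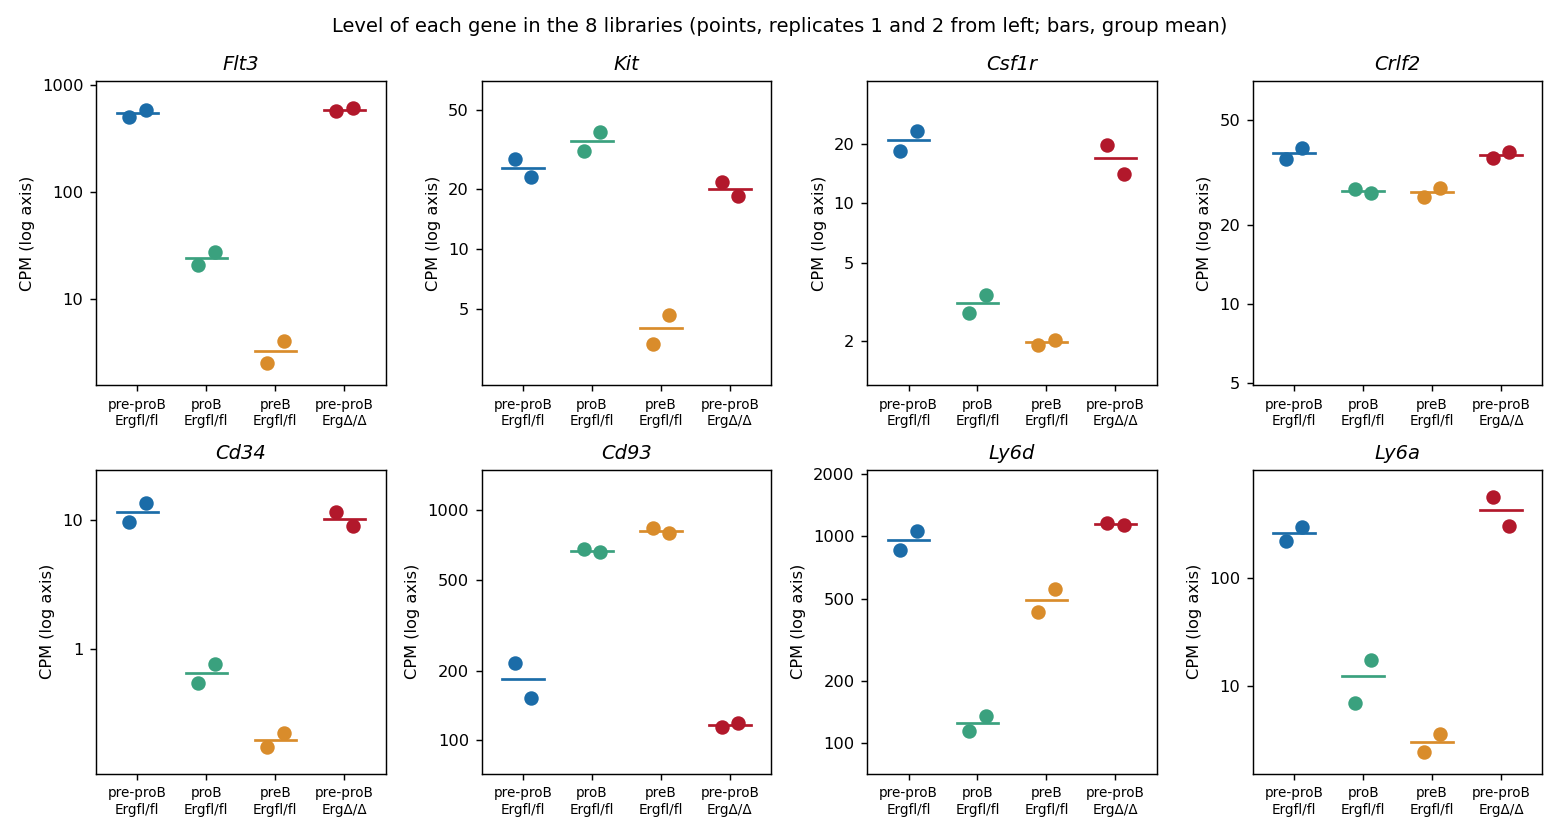
Level of the 8 genes in each library, in CPM on a log axis, with 1 panel per gene, replicates 1 and 2 as points from left to right and the group mean as a bar. Flt3, Csf1r, Cd34 and Ly6a step down at each Ergfl/fl stage, Kit is highest in proB, Cd93 rises, Ly6d is lowest in proB and Crlf2 stays between 25.6 and 39.2 CPM.

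Flt3, the receptor for FLT3 ligand on multipotent and lymphoid progenitors, had the largest change of the 8 between pre-proB and preB cells. It was at 502 and 579.5 CPM in the Ergfl/fl pre-proB libraries, 20.7 and 27.6 CPM in proB, and 2.50 and 4.06 CPM in preB. No library of one stage overlapped with those of another. ProB cells held 4.47% and preB cells 0.606% of the pre-proB mean. The log2 fold change amounted to -4.45 (standard error 0.161, adjusted p = 5.36e-08) from pre-proB to proB and -2.87 (standard error 0.227, adjusted p = 2.07e-05) from proB to preB, both from the edgeR fit of the 6 Ergfl/fl libraries. In Rag1CreT/+;ErgΔ/Δ pre-proB cells Flt3 stood at 565 and 602 CPM, a range that overlaps with Ergfl/fl pre-proB cells.

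Kit, the stem cell factor receptor, followed another course. Its level was 28.2 and 22.9 CPM in Ergfl/fl pre-proB, 31.1 and 38.6 CPM in proB, and 3.31 and 4.68 CPM in preB cells. Both proB libraries were above both pre-proB libraries, with the nearest values 28.2 and 31.1 CPM apart, and preB cells were far below either. The rise into proB was a log2 fold change of 0.49 (95% confidence interval 0.13 to 0.85, adjusted p = 0.0202 from the edgeR test) and the fall into preB one of -3.11 (interval -3.55 to -2.68, adjusted p = 7.12e-06). In edgeR fits without pre-proB replicate 2 the rise was 0.32 (adjusted p = 0.113) and without proB replicate 2 it was 0.29 (adjusted p = 0.222), so that either library decides this call. In Rag1CreT/+;ErgΔ/Δ pre-proB cells Kit was at 21.6 and 18.4 CPM. The ratio of Kit to Flt3 in CPM was 0.0394 and 0.0561 in the Ergfl/fl pre-proB libraries, 0.0305 and 0.0382 in the Rag1CreT/+;ErgΔ/Δ ones, and at least 1.15 in each proB and preB library.

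Csf1r, the macrophage colony-stimulating factor receptor, was at 18.5 and 23.2 CPM in Ergfl/fl pre-proB, 2.79 and 3.45 CPM in proB, and 1.92 and 2.03 CPM in preB cells. Both steps were downward without overlap of libraries, the first much the larger. The log2 fold changes were -2.71 (standard error 0.183, adjusted p = 2.08e-06) and -0.65 (standard error 0.223, adjusted p = 0.0333) in the edgeR fit. The second, from 118 to 69 counts over both libraries, lost its call in 7 of 13 alternative settings, with log2 fold changes from -0.81 to -0.50 and adjusted p from 0.0184 to 0.164. Rag1CreT/+;ErgΔ/Δ pre-proB cells had 19.9 and 14.1 CPM, around the Ergfl/fl values. Csf1r is known as a receptor of macrophages and dendritic cells. Myeloid markers differed between stages as well, at a summed 1490 and 1550.0 CPM in the Ergfl/fl pre-proB libraries. Most of these sums was Ctss (670 and 747 CPM), Ly86 (315 and 359 CPM) and Ccr2 (204 and 170 CPM). Of 13 myeloid markers tested, 8 were called lower in proB than in pre-proB cells and 3 higher (Lyz2, S100a8 and S100a9). Over all genes 36.8% were called lower and 36.2% higher. The part of myeloid cells in the Csf1r values was not tested.

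Crlf2 changed least. Its CPM was 35.6 and 39.2 in Ergfl/fl pre-proB, 27.4 and 26.4 in both proB libraries, 25.6 and 27.7 for preB cells, and 35.9 and 38.0 in Rag1CreT/+;ErgΔ/Δ pre-proB cells. ProB and preB libraries overlapped, as did the libraries of the 2 genotypes, and both differed from pre-proB cells without overlap. The log2 fold change on entry into proB was -0.44 (95% confidence interval -0.64 to -0.24, adjusted p = 0.00171 from the edgeR test), which left 72.0% of the pre-proB mean. For preB against proB cells the edgeR estimate was -0.01 with an interval of -0.21 to 0.20 (adjusted p = 0.962). Il7r, named here for its role as the partner chain of CRLF2, went the other way, with 414 and 416 CPM in Ergfl/fl pre-proB, 488 and 451 CPM in proB cells, and 669 and 583 CPM in preB cells. Its log2 fold changes were 0.21 (adjusted p = 0.0424) into proB and 0.42 (adjusted p = 0.00246) into preB cells in the same edgeR fit. Tslp, the ligand, had no more than 0.109 CPM in any library.

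Cd34, the progenitor sialomucin, was the least abundant of the 8 in counts. The libraries held 150 and 225 counts in Ergfl/fl pre-proB, 10 and 15 counts in proB cells, 3 and 4 counts in preB cells, and 184 and 139 in Rag1CreT/+;ErgΔ/Δ pre-proB cells. In CPM this was 9.63 and 13.7, then 0.546 and 0.772, then 0.174 and 0.225, and 11.5 and 8.97. PreB libraries were thus at the level of 3 counts, where a fitted fold change depends on few reads. After scaling by library size and TMM factor, the pooled 375 counts of pre-proB cells were 17.7 times the 25 of proB cells (exact Clopper-Pearson 95% interval 11.8 to 27.7, counting error only), and those of proB cells 3.31 times the 7 of preB cells (interval 1.39 to 9.05). The fitted log2 fold changes were -4.09 (standard error 0.293, adjusted p = 2.95e-06) and -1.68 (standard error 0.509, adjusted p = 0.0200). The second call was lost in 5 of 13 alternatives, among them each preB library left out and proB replicate 2 left out, with adjusted p between 0.00940 and 0.105.

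The RefSeq promoter windows of Flt3 and Cd34, which fell from pre-proB to proB cells, and of Kit, which rose at that step and fell at the next, are shown because Erg is an ETS family factor, whose DNA sites contain GGAA, or TTCC on the other strand. Each run is the 250 bases before the annotated transcript start in GRCm38.p6, 5′ to 3′ on the strand of the gene, with GGAA and TTCC in capitals. The windows are chr5:147400490-147400739 on the minus strand for Flt3, chr1:194938571-194938820 on the plus strand for Cd34 and chr5:75574737-75574986 on the plus strand for Kit.
Flt3: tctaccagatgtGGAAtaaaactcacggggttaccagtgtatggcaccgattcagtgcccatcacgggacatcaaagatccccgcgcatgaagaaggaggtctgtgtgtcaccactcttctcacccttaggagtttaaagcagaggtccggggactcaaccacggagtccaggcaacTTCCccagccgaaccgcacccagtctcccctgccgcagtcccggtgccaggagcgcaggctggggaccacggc
Cd34: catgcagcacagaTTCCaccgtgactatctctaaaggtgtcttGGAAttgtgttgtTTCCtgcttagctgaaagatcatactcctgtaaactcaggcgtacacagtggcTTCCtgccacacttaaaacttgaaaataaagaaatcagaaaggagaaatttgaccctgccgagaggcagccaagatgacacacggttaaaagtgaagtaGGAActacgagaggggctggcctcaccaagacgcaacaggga
Kit: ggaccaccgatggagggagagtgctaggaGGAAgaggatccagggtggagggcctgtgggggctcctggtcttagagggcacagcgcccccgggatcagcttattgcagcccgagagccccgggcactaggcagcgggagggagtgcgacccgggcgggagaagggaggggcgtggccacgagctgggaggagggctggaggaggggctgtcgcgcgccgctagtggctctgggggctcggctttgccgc
Cd34 had 5 such cores, the nearest beginning 42 bases before the start, Flt3 had 2 and Kit had 1, and the window of Crlf2, not shown, had 3. Of 32841 windows of this length in the reference 93.45% held at least 1 core, with a median of 3, and 18.0% held at least as many as Cd34. These matches describe letters in the windows and no binding was measured here. For Csf1r, Cd93, Ly6d and Ly6a no promoter was used here.

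Cd93, the AA4.1 antigen of early B-lineage cells, rose. It was at 217 and 153 CPM in Ergfl/fl pre-proB, 678 and 659.8 CPM in proB, 836 and 801 CPM in preB, and 115 and 119 CPM in Rag1CreT/+;ErgΔ/Δ pre-proB cells. The groups did not overlap, and the Rag1CreT/+;ErgΔ/Δ libraries were the lowest. ProB cells had 362% and preB cells 443% of the Ergfl/fl pre-proB mean. The log2 fold change amounted to 1.89 (standard error 0.141, adjusted p = 3.74e-06) from pre-proB to proB, and 0.30 (95% confidence interval -0.01 to 0.61, adjusted p = 0.0873) from proB to preB in the edgeR fit. The latter was called when either pre-proB library was left out, at 0.28 (adjusted p = 0.00422) without replicate 1 and 0.29 (adjusted p = 0.00325) without replicate 2. Thbd, which encodes thrombomodulin of the same protein family, was at 21.4 and 20.2 CPM in Ergfl/fl pre-proB, 89.8 and 82.2 CPM in proB cells, and 136 and 135 CPM in preB cells, a log2 fold change of 2.75 (adjusted p = 9.01e-09) from pre-proB to preB.

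Ly6d, the marker of B lineage-biased progenitors, dipped at the proB stage. It was at 861 and 1064 CPM in Ergfl/fl pre-proB, 114 and 135 CPM in proB, 430.2 and 554 CPM in preB, and 1164 and 1128 CPM in Rag1CreT/+;ErgΔ/Δ pre-proB cells. No 2 groups overlapped, and preB cells lay between proB and pre-proB cells. The log2 fold change amounted to -2.91 (standard error 0.160, adjusted p = 5.88e-07) into proB, 1.99 (standard error 0.155, adjusted p = 1.97e-05) from proB into preB and -0.93 (standard error 0.149, adjusted p = 0.000543) between preB and pre-proB cells in the edgeR fit. Each of the 3 kept its direction and its call under all 13 alternatives run.

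Ly6a, which encodes Sca-1, fell at both steps. It was at 219.9 and 297 CPM in Ergfl/fl pre-proB, 7.05 and 17.7 CPM in proB, 2.50 and 3.61 CPM in preB, and 554 and 302 CPM in Rag1CreT/+;ErgΔ/Δ pre-proB cells. Stages did not overlap, but the proB libraries differed from each other by 2.51 times and the Rag1CreT/+;ErgΔ/Δ libraries by 1.84 times. The log2 fold changes were -4.34 (standard error 0.313, adjusted p = 3.07e-06) into proB and -2.02 (standard error 0.479, adjusted p = 0.00666) into preB cells in the edgeR fit. Without proB replicate 2, whose myeloid marker sum was 1.94 times that of replicate 1 (Mpo 22.3 against 3.99 CPM), the step into preB was -1.21 (adjusted p = 0.0219), and the part of those cells in the Ly6a value was not tested. Without preB replicate 1 that step was -1.77 and no longer called (adjusted p = 0.0635). Ly6c2, a close relative with which reads of Ly6a could be shared, was at 624 and 754 CPM in Ergfl/fl pre-proB, 12.3 and 18.6 CPM in proB cells, no more than 4.56 CPM in preB cells, and 965 and 814 in Rag1CreT/+;ErgΔ/Δ pre-proB cells.

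**Figure D2:**
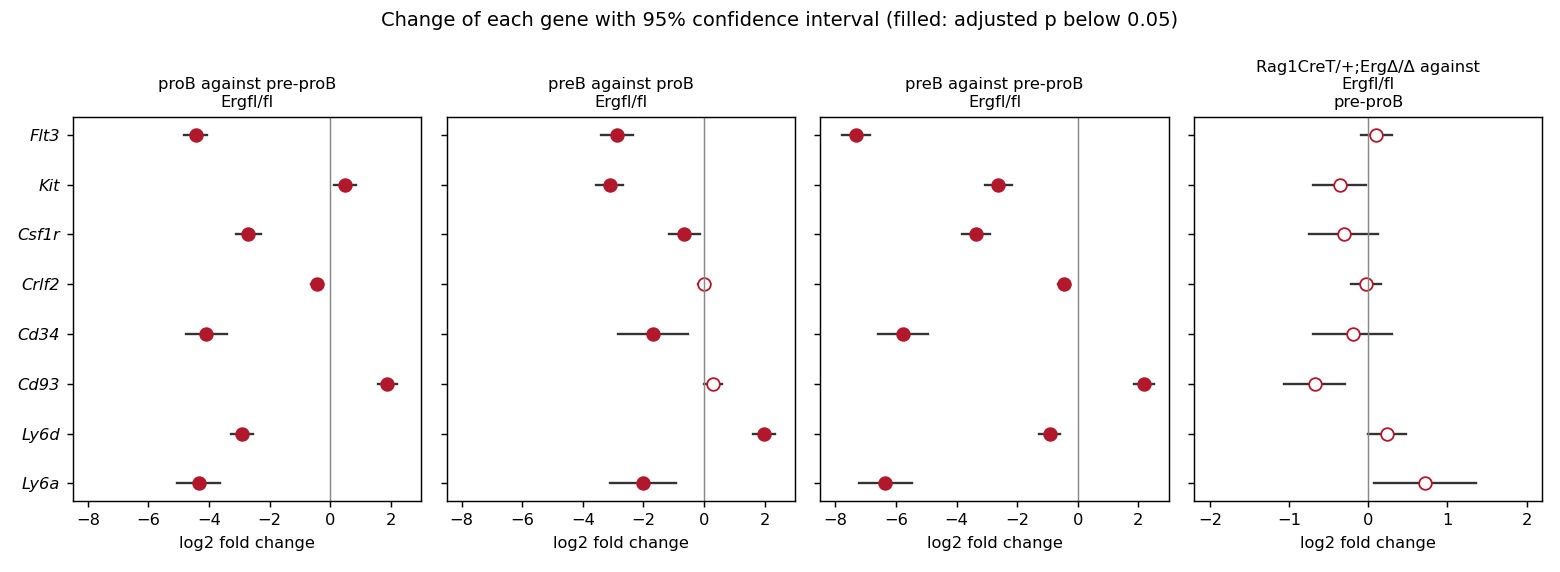
Log2 fold change of each gene (points) with its 95% confidence interval (lines) in the 3 stage comparisons and the genotype comparison, filled where the adjusted p of edgeR's quasi-likelihood test is below 0.05. The axis of the genotype panel is narrower than that of the stage panels, and its points lie between -0.68 and 0.72, none filled.

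Loss of Erg in pre-proB cells left 0 of the 8 genes called in edgeR's quasi-likelihood test (4 libraries), with 4 of them at an unadjusted p below 0.05, as were 1624 of all 13005 genes, and 0 in DESeq2, limma-voom and edgeR's version 4 method. Cd93 was 115 and 119 CPM in Rag1CreT/+;ErgΔ/Δ against 217 and 153 CPM in Ergfl/fl cells, 63.2% of the Ergfl/fl mean. Its log2 fold change was -0.68 (95% confidence interval -1.06 to -0.29, unadjusted p = 0.00429, adjusted p = 0.125 from the edgeR test), and it ranged from -0.93 to -0.39 over 11 alternatives with adjusted p from 0.000438 to 0.377. It was called when all 8 libraries were fitted together (-0.66, adjusted p = 0.0326) and when Ergfl/fl pre-proB replicate 2 was left out (-0.93, adjusted p = 0.000438). Of the 2 Ergfl/fl libraries, replicate 1 had the higher Cd93, the higher Erg and the higher sum of B-lineage markers (1930.5 against 951 CPM), and their part in the Cd93 difference was not tested.

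Ly6a had the largest difference upward, 166% of the Ergfl/fl mean and a log2 fold change of 0.72 (95% confidence interval 0.08 to 1.36, adjusted p = 0.344 from the edgeR test). Its libraries did not overlap, but the nearest were 297 and 302 CPM. Rag1CreT/+;ErgΔ/Δ replicate 1, at 554 CPM, was also the library with the highest summed T cell markers. The sum was 1486 CPM, against 848 CPM in replicate 2 and 675 and 830.3 CPM in Ergfl/fl. It was mostly Cd4 (1214 CPM against 623 CPM in replicate 2), with Cd8a at 185 against 126 CPM. Cd3d, Cd3e and Cd3g were at 5.69, 5.00 and 4.75 CPM, against 6.33, 4.84 and 6.00 CPM in replicate 2. Lck, Zap70, Lat and Cd5 were lower in replicate 1 than in replicate 2. Plasmacytoid dendritic cell markers summed to 19844 and 19942 CPM in these replicates 1 and 2. Among them Irf7 (513 against 296 CPM) and Klk1 (540 against 382 CPM) were higher in replicate 1 and Siglech (3953 against 4507 CPM) was lower. The part of these differences in the Ly6a value was not tested. Kit had a log2 fold change of -0.36 (interval -0.70 to -0.03, adjusted p = 0.364) and Ly6d one of 0.24 (interval 0.00 to 0.48, adjusted p = 0.398), again without overlap of libraries. The remaining genes overlapped between genotypes. The share of all genes whose libraries do not overlap was not computed, so the absence of overlap says little by itself. Flt3 differed by 0.10 (interval -0.10 to 0.30), Csf1r by -0.31 (interval -0.75 to 0.13), Crlf2 by -0.03 (interval -0.21 to 0.15) and Cd34 by -0.20 (interval -0.69 to 0.30), all on the log2 scale, with adjusted p between 0.546 and 0.922. The intervals of Flt3 and Crlf2 were the narrowest of the 8 and that of Ly6a the widest. Permuting 2 libraries against 2 for 1 gene (exact, two-sided) gives no p under 0.33, so these p-values lean on variance information that the edgeR fit takes from other genes. The genotype comparison and the stage comparisons share the Ergfl/fl pre-proB libraries, so their values for a gene are not independent.

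Across genes, levels can be compared only per length. In FPKM, here CPM per kilobase of annotated exons, the order in Ergfl/fl pre-proB cells was Ly6d (1293 ± 193, SD, n = 2), Ly6a (257 ± 54.1), Flt3 (148 ± 15.0), Cd93 (27.7 ± 6.82) and Crlf2 (25.6 ± 1.77), then Kit (4.86 ± 0.716), Cd34 (4.46 ± 1.10) and Csf1r (4.27 ± 0.676). Cd93 and Crlf2 did not differ beyond their spread, nor did Kit, Cd34 and Csf1r. Ly6d stood above 99.9% of the 12552 genes with a length, Flt3 above 97.3%, and Cd34 above 33.2%. In preB cells the order was Ly6d (662 ± 118), Cd93 (123 ± 3.66), Crlf2 (18.2 ± 1.04), Ly6a (3.04 ± 0.779), Flt3 (0.896 ± 0.301), Kit (0.760 ± 0.183), Csf1r (0.404 ± 0.0159) and Cd34 (0.0766 ± 0.0138), of which Flt3 and Kit did not differ beyond their spread. Flt3 had thus moved from above 97.3% of genes to above 20.6%, while Cd93 had moved from above 77.7% to above 96.7%.

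The marker lists of other cell types moved with the stages as well. All 15 plasmacytoid dendritic cell markers were called lower in proB than in pre-proB cells and 14 of 15 in preB than in pre-proB cells, Spib being the exception. Of all genes 36.8% and 34.1% were called lower in these comparisons. Between genotypes 0 of 15 were called, where 1.16% of all genes were. That count does not show that RNA of plasmacytoid dendritic cells was unchanged. Siglech, a defining marker of that cell type, was at 3856 and 3825 CPM in Ergfl/fl pre-proB and 46.5 and 56.5 CPM in proB cells. The summed level fell from 16879 and 18391 CPM in Ergfl/fl pre-proB to 1378 and 1331 CPM in proB cells, and the same libraries were those in which Flt3, Csf1r, Cd34, Ly6d and Ly6a fell. The 6 conventional dendritic cell markers, 5 of which passed the filter and were called lower, summed to 734 and 787 CPM in Ergfl/fl pre-proB and 9.01 and 13.7 CPM in proB cells. Nearly all of the pre-proB sums was Itgax (326 and 405 CPM), Clec9a (232 and 238 CPM) and Cd209a (174 and 140 CPM). Zbtb46, Xcr1 and Batf3 were at no more than 2.25 CPM in these libraries. The part of dendritic cells in the fall of Flt3, Csf1r, Cd34, Ly6d and Ly6a was not tested. Natural killer and innate lymphoid markers (14 genes) summed to 233 and 249.8 CPM in Ergfl/fl and to 336 and 506 CPM in Rag1CreT/+;ErgΔ/Δ pre-proB cells, where 5 of 14 were called higher (Ncr1, Klra8, Prf1, Gzma and Nkg7). Of all genes 0.215% were called higher in that comparison.

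**Figure D3:**
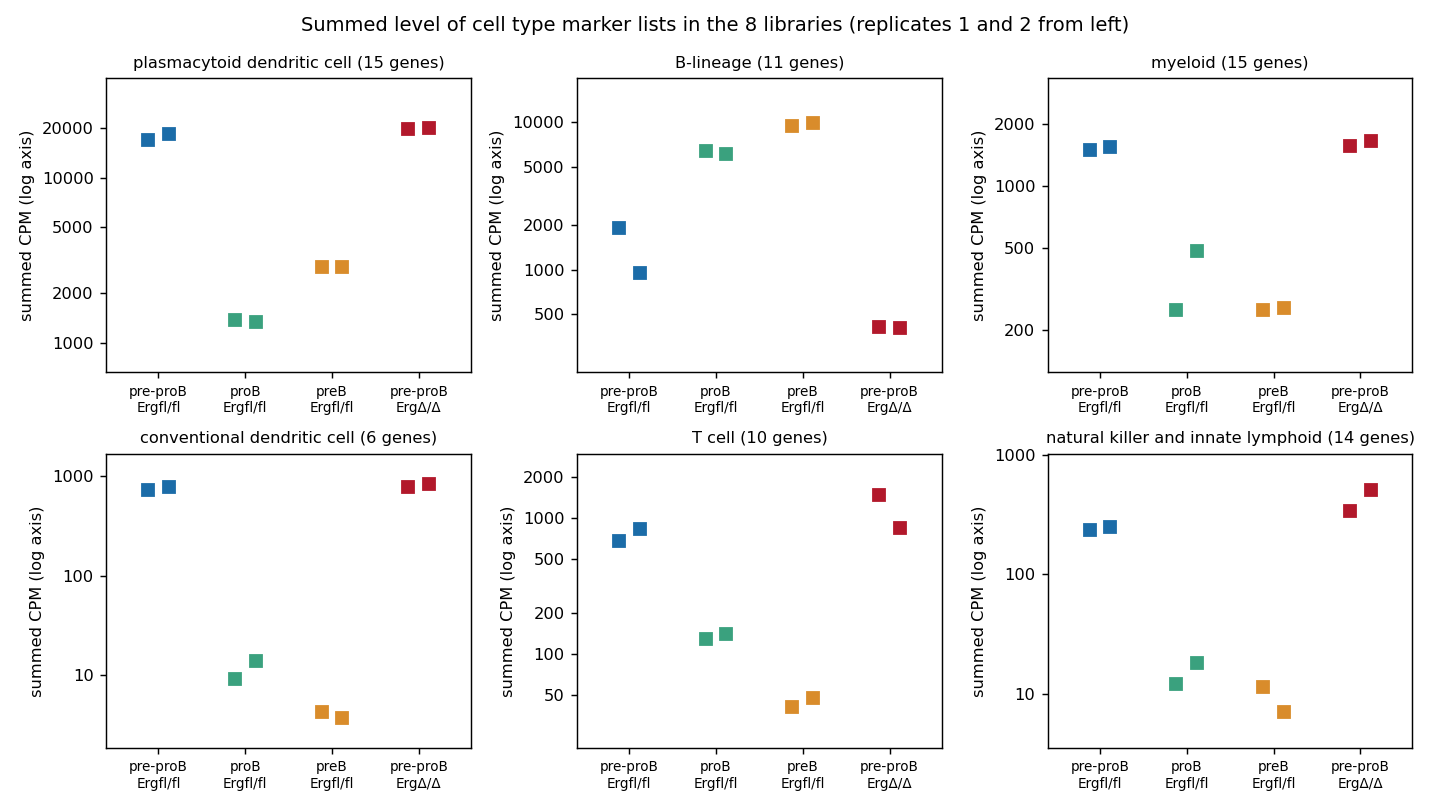
Summed CPM of 6 cell type marker lists in each library on a log axis, replicates 1 and 2 as squares from left to right. Sums of plasmacytoid and conventional dendritic cell markers are highest in the pre-proB libraries of both genotypes. The B-lineage sum rises with stage and is lowest in Rag1CreT/+;ErgΔ/Δ cells. Of its genes, 2 (Cd79b and Rag1) were called higher and 2 (Vpreb1 and Igll1) lower in preB than in proB cells. Of all genes 29.0% were called higher and 29.9% lower in that comparison. ProB replicate 2 holds more myeloid marker RNA (486 CPM) than replicate 1 (251 CPM).

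Genes of the same pathways were described from lists. Of 31 receptor chains, adaptors, kinases, phosphatases and feedback inhibitors that act with or downstream of these receptors, 31 passed the filter, 9 were called higher and 20 lower in proB than in pre-proB cells, 16 higher and 9 lower in preB than in proB cells, and 0 higher and 1 lower in Rag1CreT/+;ErgΔ/Δ cells. Of all genes 36.2% were called higher and 36.8% lower into proB and 29.0% and 29.9% into preB cells, so that the 9 called higher in the first step and the 9 called lower in the second lie near the shares over all genes. Between genotypes 0.215% of all genes were called higher and 0.946% lower, so 0 and 1 of 31 say little by themselves. The median log2 fold change of the list was -0.41 from pre-proB to proB, beside 0.00 over all genes. The 3 with the lowest p in that step were Fyn, a Src family kinase (-3.27), Sla2, an adaptor that restrains receptor signalling (-5.45), and Jak2, a kinase of cytokine receptors (-1.89). Gab1, a docking adaptor, was the 1 called lower without Erg, at 0.375 and 0.710 CPM against 3.66 and 2.61 CPM, a log2 fold change of -2.53 (adjusted p = 0.0488 from the edgeR test). That adjusted p lies just under 0.05, the levels without Erg are low, and the call of Gab1 under the alternatives is not given here. Among 7 relatives and ligands of the class III receptors 4 passed the filter between stages. Pdgfrb fell from 4.36 and 4.62 CPM in Ergfl/fl pre-proB to 0.109 and 0.257 CPM in proB cells, Flt3l, the ligand of FLT3, from 15.1 and 14.2 to 10.5 and 9.88 CPM before rising to 20.5 and 22.8 CPM in preB cells, and Csf1 rose from 6.29 and 5.47 to 7.59 and 9.10 and then 16.7 and 14.7 CPM.

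Other genes of early haematopoietic and lymphoid progenitors changed in both directions. Of 30, 26 passed the filter, and 7 were called higher and 14 lower in proB than in pre-proB cells, 4 higher and 16 lower in preB than in proB cells, with list medians of -0.82 and -0.78 on the log2 scale beside 0.00 and -0.00 over all genes. Over all genes 36.2% were called higher and 36.8% lower in the first of these steps, and 29.0% and 29.9% in the second, and the difference of the list from them was not tested. Ccr9, a chemokine receptor of early thymic progenitors and plasmacytoid dendritic cells that also stands in the dendritic list, had a mean of 1120 CPM in Ergfl/fl pre-proB cells, and its proB libraries had 13.5 and 18.6 CPM. Cd244a (-3.96), a SLAM family receptor, and Lmo2 (-2.55), a LIM domain cofactor of stem and progenitor cells, had the next lowest p. Between genotypes 23 passed and 1 was called, Lyl1, a basic helix-loop-helix factor, at 25.8 and 30.7 against 43.2 and 41.9 CPM (log2 fold change -0.60, adjusted p = 0.0466 from the edgeR test). The adjusted p of Lyl1 also lies just under 0.05, and its call under the alternatives is not given here. Of all genes 1.16% were called between genotypes. Of 12 further Ly6 family members 5 passed the filter between stages, and 4 fell from pre-proB to proB (Ly6e, Ly6c2, Ly6k and Lynx1). Lynx1 then rose from proB to preB by a log2 fold change of 1.97 (adjusted p = 6.00e-06), with the dip that Ly6d showed.

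The genes whose levels ran most like each of the 8 over the 8 libraries were found among 13087 genes by the root mean square difference of log2(CPM + 0.5) after centring each gene on its mean. The closest was Ptms for Flt3 (0.29 on the log2 scale), Adgrg3 for Kit (0.12), Met for Csf1r (0.13), Cndp2 for Crlf2 (0.04), Disc1 for Cd34 (0.16), Neto2 for Cd93 (0.10), Itgb3 for Ly6d (0.18) and Anxa2 for Ly6a (0.27). Adgrg3 shared the proB peak of Kit, with 55.1 and 54.0 CPM in Ergfl/fl pre-proB, 69.0 and 77.8 CPM in proB cells, 6.68 and 8.62 CPM in preB cells and 42.6 and 38.1 in Rag1CreT/+;ErgΔ/Δ pre-proB cells. Tcf3, which encodes E2A, was second for Cd93 (0.12), at 239 and 193, 847 and 811, 1175 and 1159, and 154 and 148 CPM in the same order of groups. Within the 8, the closest pairs were Csf1r with Cd34 (0.50) and Flt3 with Ly6a (0.53), and the most distant was Flt3 with Cd93 (4.26). The added 0.5 CPM narrows differences between genes at low levels. Met was at 0.218 and 0.360 CPM in proB and at 0 in preB libraries, where Csf1r was at 1.92 and 2.03 CPM. For Csf1r and Cd34 the fitted log2 fold changes between preB and pre-proB cells were -3.36 and -5.77. These distances are descriptions over 8 libraries of 4 groups and carry no test.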

How the data were processed

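Total RNA of sorted bone marrow cells was sequenced as paired 100-base reads. Per the labels and the methods, the authors used CASAVA 1.8.2, removed adapters with Trim Galore, aligned reads to mm10 (GRCm38) with STAR and made the deposited whole-number counts per Entrez gene with featureCounts, without normalisation. The sources used here give neither the other versions nor the strand setting nor the treatment of reads with several hits. Such reads can be lost or shared among close relatives such as Ly6a and Ly6c2.

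From the counts, genes that reached 0.5 CPM in 2 or more of the libraries fitted were scaled by TMM and tested with edgeR 4.0.16 (R 4.3.3) by the quasi-likelihood test, with Benjamini-Hochberg adjustment over all genes and a threshold of 0.05. Stages were compared in a fit of the 6 Ergfl/fl libraries and genotypes in one of the 4 pre-proB libraries. Alternatives were DESeq2 1.42.0 (its size factors and its test), limma-voom (limma 3.58.1), edgeR's version 4 method, no filter, all 8 libraries together, a replicate block and each library left out. Scripts were tested on simulated data. Library totals were 15565381 to 18457632, and intervals on counts cover counting error only. Of 27179 identifiers 25275 had a symbol, and the other 1904 held 0.577% of counts. Replicate libraries differed beyond sampling noise (chi-square per degree of freedom 3.82 to 8.29).

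The 8 genes and the lists were chosen with earlier results of these data known. Named are the 8 genes in every comparison, at most 3 called genes of lowest p per list and comparison, and the 3 most similar genes per gene as candidates. Il7r, Thbd, Ly6c2, Tslp, Itgax, Siglech, Mpo, Cd4, Spib, Pdgfrb, Flt3l, Csf1, Ly6k, Ly6e, Lynx1, Zbtb46, Xcr1, Batf3, Irf7, Klk1 and the natural killer genes were named after their values were seen where that rule did not reach them. Promoter windows came from RefSeq (GRCm38.p6) for 4 of the 8 genes.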

Additional observations from a re-analysis of the deposited data

How the results depend on the processing

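Between stages each comparison was repeated under 13 alternatives and between genotypes under 11. Flt3, Cd34, Csf1r, Cd93, Ly6d, Ly6a and Crlf2 kept direction and call from pre-proB to proB under all 13, and all 8 genes did so between preB and pre-proB cells. Of the 8, the number called from proB to preB was 3 to 7 with 1 library left out, the 3 without Ergfl/fl preB replicate 1. The share of all genes called in those fits is not given here, so a lower count of the 8 says little by itself. The Crlf2 log2 fold change from proB to preB was not called in any setting. It ranged from -0.11 to 0.0593 with 1 library left out and was 0.01 without Ergfl/fl proB replicate 1.

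Between genotypes, 151 genes were called, against 279 without the filter, 400 in DESeq2, 41 in limma-voom, 88 with edgeR's version 4 method, 442 with all 8 libraries in 1 fit, and 10 to 401 with 1 library left out (107 without Ergfl/fl replicate 1, 401 without Ergfl/fl replicate 2, 16 without Rag1CreT/+;ErgΔ/Δ replicate 1, 10 without its replicate 2). Of the 8 genes 0 were called, but 1 (Cd93) with all 8 libraries and 0 to 1 with 1 library left out. The uncalled log2 fold changes of Crlf2 ranged from -0.0876 to 0.0216 (0.0216 without Ergfl/fl replicate 2, 0.01 without Rag1CreT/+;ErgΔ/Δ replicate 1) and those of Cd34 from -0.42 to 0.0559 (0.0559 without Ergfl/fl replicate 2). The cause was not tested.

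The stages of Ergfl/fl mice share 2 animals, but the labels do not tie a replicate number to an animal, so whether the numbers pair the stage libraries is not known. Differences between same-numbered replicates correlated at -0.03 to 0.15 over 13811 genes. With the number as a replicate block, 10044 genes were called from pre-proB to proB, 8269 from proB to preB, 9781 between preB and pre-proB cells and 265 between genotypes, and the call of none of the 8 genes changed. At 3 counts, 0.154 to 0.194 CPM, depth limits Cd34 in preB cells.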

Other observations

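Further marker lists varied between groups. The 8 mature B cell markers summed to 114 and 122 CPM in Ergfl/fl pre-proB, 407 and 400.0 CPM in proB, 898 and 954 CPM in preB, and 80.6 and 73.3 CPM in Rag1CreT/+;ErgΔ/Δ pre-proB libraries. The 6 preB markers summed to 432 and 417 CPM, 1338 and 1433 CPM, 2916 and 2932 CPM, and 199 and 187 CPM in the same order. Erythroid markers (7 genes) summed to no more than 22.4 CPM in any library.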
